A study of Mus musculus with 6 samples.

Results

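The testis-specific serine kinases are 6 genes in the mouse, Tssk1 to Tssk6, described here with Tsks, which encodes a protein that members of the family bind and phosphorylate. The 7 genes were chosen by symbol, and all 7 were found once each among the 36652 genes of the deposited table. Whole testes of mice 8 weeks old were profiled by RNA sequencing in 6 libraries, 3 with the genotype WT and 3 with the genotype Ccdc117ko. The labels describe neither the allele nor the strain, and they do not say whether each library came from its own mouse, so a p-value here reflects how far these samples scatter, which may be technical. The title of the series names a deficiency of Ccdc117, a coiled-coil protein gene, together with androgen excess and fertility.

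The TSSK proteins form a small branch of protein kinases whose genes are transcribed mainly in spermatids, the haploid cells that remodel into sperm after meiosis. Tssk1 and Tssk2 lie side by side, bind Tsks and are needed for the spermatid cytoplasm to be reorganised, Tssk3 and Tssk6 are needed for male fertility in mice, and Tssk4 acts on a protein of the sperm tail. Tssk6, also called Sstk, has been tied to the compaction of sperm chromatin and requires a co-chaperone, Tsacc, and the Hsp90 chaperones for its activity.

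The genes sit on 6 chromosomes of mm10 (GRCm38, GENCODE M21). Tssk1 (ENSMUSG00000041566, chr16:17894223-17897922, plus strand), Tssk2 (ENSMUSG00000045521, chr16:17898637-17900024, plus strand) and Tssk6 (ENSMUSG00000047654, chr8:69902184-69903518, plus strand) have a single exon. Tssk3 (ENSMUSG00000000411, chr4:129489014-129491022, minus strand) has 2 exons, Tssk4 (ENSMUSG00000007591, chr14:55650184-55652539, plus strand) has 3 in its longest transcript, Tssk5 (ENSMUSG00000060794, chr15:76371952-76374938, minus strand) has 6 and Tsks (ENSMUSG00000059891, chr7:44943204-44958035, plus strand) has 11. Tssk2 begins 715 bases after the end of Tssk1.

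Tssk1 and Tssk2 are the closest pair in sequence. Their coding sequences were 1095 and 1074 bases long and were 77.2% identical in a global alignment, while the other 14 pairs of kinases ranged from 45.5% to 55.9%. The longest identical coding stretch is shown because reads that lie wholly inside it cannot be assigned to one gene. It covers 113 bases at coding positions 371 to 483 of both genes (chr16:17894723-17894835 in Tssk1 and chr16:17899105-17899217 in Tssk2, plus strand).
Tssk1 and Tssk2, shared: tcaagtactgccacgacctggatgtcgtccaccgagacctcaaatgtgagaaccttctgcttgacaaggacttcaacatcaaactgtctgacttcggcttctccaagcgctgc

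Words of 50 bases that also occur in the other gene made up 9.34% of the Tssk2 transcript and 3.42% of the Tssk1 transcript. No 50-base word of the longest transcript of Tssk3, Tssk4, Tssk5 or Tsks was found in a transcript of another gene, on either strand. Other transcripts of these genes were not searched. Tssk6 overlaps the 5′ end of Ndufa13, a respiratory complex I gene on the opposite strand, over 375 of its 1335 exon bases, and Yjefn3 over 15. Tssk1 lies within the span of Dgcr2 on the opposite strand and overlaps its exons over 63 of 3700 exon bases. The library kit keeps strand, but whether the counting used it is not given in the sources used here, so Tssk6 and Ndufa13 may share reads.

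The 80 bases before the RefSeq start sites of Tssk1 and Tssk2 are shown because these neighbouring paralogs were both at higher values in the Ccdc117ko libraries. Capitals mark runs of at least 8 bases found in both windows (GRCm38.p6, plus strand, 5′ to 3′; chr16:17894123-17894202 for Tssk1 and chr16:17898557-17898636 for Tssk2).
Tssk1: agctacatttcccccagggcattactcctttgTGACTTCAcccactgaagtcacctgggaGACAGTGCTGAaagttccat
Tssk2: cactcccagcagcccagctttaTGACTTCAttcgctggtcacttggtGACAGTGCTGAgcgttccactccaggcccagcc

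On the strand shown, each window held 2 shared runs in the same order. The Tssk1 window also holds the reverse complement of TGACTTCA, which is not marked. The run TGACTTCA was present, on either strand, in 1.31% of the 32851 RefSeq windows of 250 bases before a start site. GACAGTGCTGA was in 6 of them, those of Tssk1 and Tssk2 included. Both runs were picked after these 2 sequences were seen. RefSeq windows were matched for 6 of the 7 genes, Tssk5 being the one without. In those 6 windows of 250 bases, searched on both strands, the cAMP response element TGACGTCA was absent (1.55% of all windows hold it), and its half-site TGACG, which lies within the full element, was in that of Tssk6 alone, against 17.8% of all windows. The letters GTTGCC of an RFX half-site (10.4% of all windows), ACAATG of a SOX site (10.7%), CAGTTG of a MYB site (11.1%) and the TATA box TATAAA (12.4%) were in none of the 6. The Tssk3 window (chr4:129490771-129491020) lies inside its GENCODE gene, so no base before the GENCODE start of Tssk3 was searched. The Tsks window reaches past the GENCODE start of Tsks. Those of Tssk1 and Tssk6 overlap annotated untranslated regions of Dgcr2 and Ndufa13. The Tssk2 window overlaps no annotated untranslated region, but it reaches into the Dgcr2 gene. Dgcr2 lies on the minus strand and begins at chr16:17898562, a base that is also within the 80 bases shown for Tssk2. A match or its absence describes only these letters in these windows.

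The libraries held 35791616 to 43461692 whole reads. Values below are normalized counts, the reads of a gene scaled by the authors to a common depth. Ccdc117 itself did not separate the libraries, at 3657, 3826 and 3931 in WT and 3478, 3772 and 3908 in those labelled Ccdc117ko (limma adjusted p = 0.763), so the table gives no check of genotype. A gene is called changed where limma, a linear model fitted to log2 values with the spread shared among genes, gave a Benjamini-Hochberg adjusted p under 0.05 over the 32783 genes tested. Spermatid transcripts were abundant, with Prm2, the gene of protamine 2, at 163608 normalized counts in WT, while the 2 epididymal genes that could be tested, of 4 listed, summed to between 129 and 192.

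All 7 genes were measured at high depth, from 965 whole reads for Tssk5 in its lowest library to 29051 for Tsks in its highest. All passed the filter on low values, an average of 0.5 normalized counts or more over the libraries. Levels between genes were compared per kilobase of the longest annotated transcript. In WT, Tssk6 was highest at 15478 ± 513 normalized counts per kb (SD, n = 3), which placed it at rank 112 of 19112 protein-coding genes over all 6 libraries. Tsks followed at 13757 ± 404 per kb and Tssk2 at 13029 ± 460 per kb. The WT values of Tsks (13335 to 14140 per kb) and Tssk2 (12501 to 13347 per kb) overlapped, so their order was not larger than their spread.

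The other kinases were lower per length and did not overlap with one another in WT. Tssk3 had 5464 ± 248 normalized counts per kb, Tssk1 3376 ± 116 and Tssk4 2319 ± 201 (SD, n = 3 each). Tssk5 was lowest at 531 ± 80.1 per kb, at rank 4246. The place of Tssk1 depends on the gene model. GENCODE gives it 3700 bases and RefSeq 1451, and with the shorter model its level was 8610 ± 296 per kb, above Tssk3. For Tssk5 the longest transcript retains an intron, and with the 1518 bases of its protein-coding transcript the level was 718 ± 108 per kb, still the lowest.

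**Figure D1:**
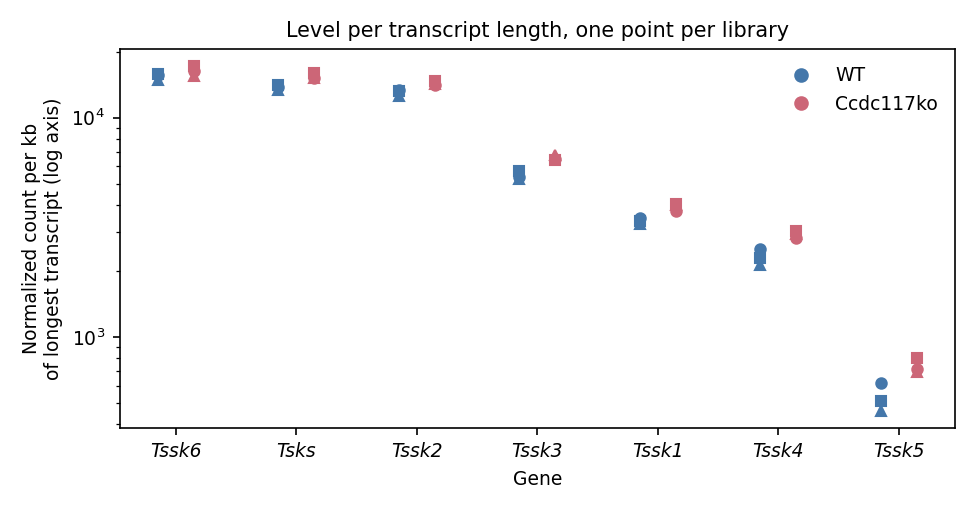
Normalized count per kb of the longest transcript (log axis) for each gene, with 1 point per library, WT in blue and Ccdc117ko in red, and marker shapes for replicates 1 to 3. Tssk6, Tsks and Tssk2 lie at 12501 or above in every library and Tssk5 lies between 461 and 806.

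Most of the family was modestly higher in the libraries labelled Ccdc117ko. Tssk1, Tssk3, Tssk4, Tssk5 and Tsks were called higher, 5 of 7 against 3.70% of all tested genes. None was called lower, against 3.10% of all tested genes (6.80% in either direction), and Tssk2 and Tssk6 were not called. The log2 fold changes ran from 0.08 for Tssk6 to 0.48 for Tssk5, with a median of 0.23 against 0.00 for all tested genes, of which 50.2% were above 0. In 6 of the 7 the lowest Ccdc117ko library was above the highest WT library, which held for 13.7% of all tested genes, and 13.3% were apart in the other direction. In whole testis, more cells of a type and more RNA per cell cannot be told apart.

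Tssk1 was measured, in replicate order, at 12937, 12461 and 12081 normalized counts in WT and at 13940, 15032 and 14847 in Ccdc117ko. The groups did not overlap, and the lowest Ccdc117ko library was replicate 1. The means of 12493 ± 429 and 14606 ± 584 (SD, n = 3 each) gave a log2 fold change of 0.23 (SE 0.04), 16.9% higher, with a limma adjusted p of 0.025.

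Tssk2, its neighbour and closest paralog, had 18526, 18375 and 17352 normalized counts in WT and 19499, 20481 and 19782 in Ccdc117ko. Again every Ccdc117ko value was above every WT value. The log2 fold change was 0.14 (SE 0.04; 95% interval 0.05 to 0.23), and limma did not call it (adjusted p = 0.067). It was called with a stricter filter, an average of 10 normalized counts or more (adjusted p = 0.0305), with upper-quartile scaling (0.0467) and with limma-voom on whole reads (0.0413).

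Tsks, the substrate bound by Tssk1 and Tssk2, gave the largest counts of the group. Its normalized counts were 25428, 26059 and 24576 in WT and 27861, 29421 and 27861 in Ccdc117ko, with no overlap. It rose by 0.16 on the log2 scale (SE 0.04, limma adjusted p = 0.0412), from 25354 ± 745 to 28381 ± 900.3 (SD, n = 3 each), or 11.9%.

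Tssk3, a kinase needed for male fertility, had 6889, 7351 and 6743 normalized counts in WT and 8342, 8188 and 8642 in Ccdc117ko. The 3 Ccdc117ko values were close together and all above WT. It rose by 0.26 on the log2 scale (SE 0.04, limma adjusted p = 0.0193), from 6994 ± 317 to 8391 ± 231 (SD, n = 3 each), a fold of 1.20.

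Tssk4, whose product acts on the tail protein Odf2, had 4269, 3861 and 3598 normalized counts in WT and 4775, 5127 and 4947 in Ccdc117ko. WT replicate 1 was the highest of its group and still below every Ccdc117ko library. It rose by 0.34 on the log2 scale (SE 0.06, limma adjusted p = 0.0247), from 3909 ± 338 to 4950 ± 176 (SD, n = 3 each), or 26.9%.

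Tssk5, the least abundant of the family, had 1271, 1052 and 948 normalized counts in WT and 1465, 1656 and 1427 in Ccdc117ko. It had the widest spread, a coefficient of variation of 15.1% in WT, and yet no overlap. It rose by 0.48 on the log2 scale (SE 0.11; 95% interval 0.23 to 0.73; limma adjusted p = 0.04), from 1090.4 ± 165 to 1516 ± 123 (SD, n = 3 each), or 39.7%.

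Tssk6, the kinase tied to chromatin compaction and the most abundant per length, was the gene whose groups overlapped. Its normalized counts were 20917, 21185 and 19887 in WT and 21736, 22878 and 20735 in Ccdc117ko. Ccdc117ko replicate 3 lay below WT replicates 1 and 2. The log2 fold change was 0.08 (SE 0.04; 95% interval -0.03 to 0.18), and limma did not call it (adjusted p = 0.364). The interval spans no change and a rise of up to 1.13-fold.

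**Figure D2:**
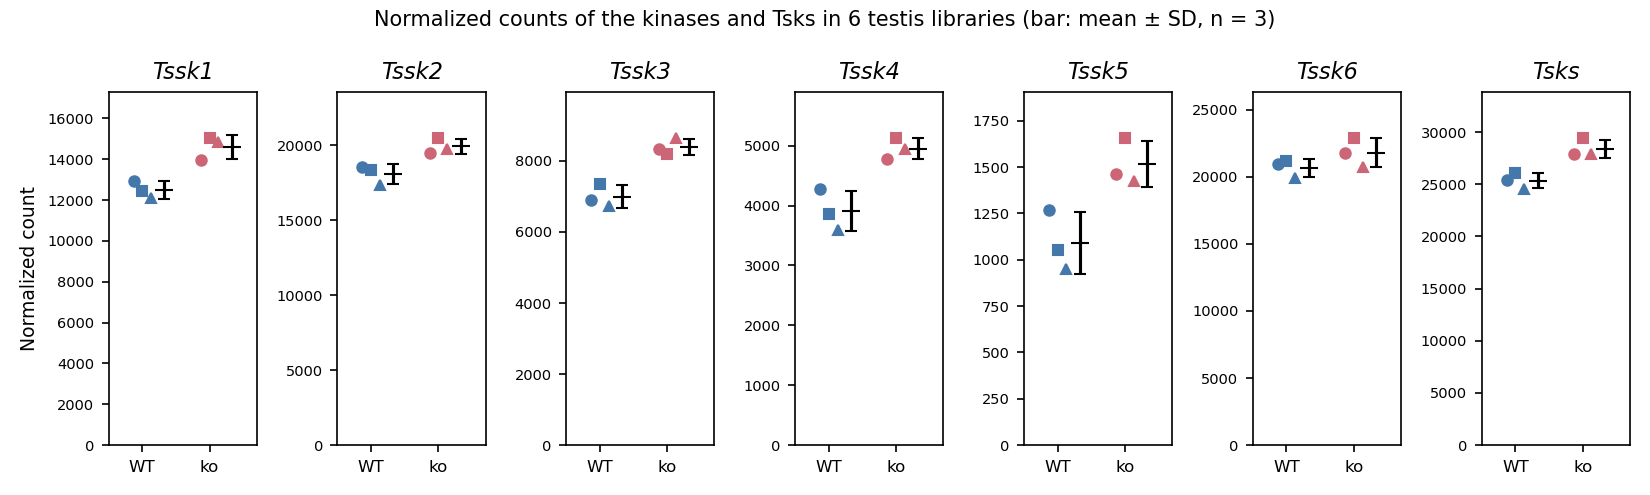
Normalized counts (y axis, from 0) of each gene in the 3 WT (blue) and 3 Ccdc117ko (red, ko) libraries, with marker shapes for replicates 1 to 3 and black bars for the mean ± SD. The groups are apart for all genes except Tssk6, where Ccdc117ko replicate 3 (20735) lies within the WT range.

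The calls of the family, like those of all genes, fell in number when any single library was left out. With each library left out in turn, members kept log2 fold changes above 0, from 0.04 to 0.60, but limma called none of the 7 without WT replicate 2 or 3 or Ccdc117ko replicate 1, 2 or 3, and 2 of them, Tssk4 and Tssk5, without WT replicate 1. Over all 32783 genes those fits called 6 to 22, and 1268 without WT replicate 1. At a limma unadjusted p under 0.05 were 6 of the 7 members in every leave-one-out fit, as with every library in. Of all tested genes 5817 to 7349 reached that level with a library left out, and 7436 with every library in. Among genes averaging 10 normalized counts or more, of which 8.35% were called higher with every library in, a repeat chosen after the data were seen gave steadier calls: Tssk1, Tssk3, Tssk4 and Tssk5 were called whichever library was left out (highest limma adjusted p = 0.035, for Tssk1). Leaving out WT replicate 3 (adjusted p = 0.0636) or Ccdc117ko replicate 2 (0.0886) ended the call of Tsks there. In the authors' deposited table, whose test is not stated, the FDR was 1.18e-06 for Tssk1, 0.00253 for Tssk2, 5.91e-08 for Tssk3, 8.07e-08 for Tssk4, 0.0095 for Tssk5, 0.295 for Tssk6 and 0.000179 for Tsks, and 5.78% of all its genes were higher with an FDR under 0.05.

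Longer transcripts had lower median fold changes in this series, and by their longest GENCODE transcripts 4 of the 7 genes are in the shortest class. Among protein-coding genes averaging 50 normalized counts or more, split by length into 5 classes, the median log2 change was 0.10 for those of 204 to 1818 bases, 0.01 for 1819 to 2794 bases and -0.04 for 2795 to 3791 bases, the 3 classes that hold these genes. Tssk2, Tssk3, Tssk4 and Tssk6, at 1280 to 1686 bases, fall in the first of them, Tsks (1843) and Tssk5 (2055) in the second and Tssk1 (3700) in the third. Tssk1 at its RefSeq length of 1451 bases, and Tssk5 at the 1518 bases of its protein-coding transcript, would also fall in the first. When the values of each library were corrected for transcript length and GC content, the same 5 genes were called, with log2 fold changes of 0.31 for Tssk1, 0.23 for Tssk3, 0.34 for Tssk4, 0.50 for Tssk5 and 0.18 for Tsks (limma adjusted p = 0.0138, 0.0229, 0.0208, 0.034 and 0.0333), beside 4.41% of all genes called higher. The values of Tssk1 and Tssk5 rest on their longest GENCODE transcripts, of 3700 and 2055 bases, and the correction was not run with the shorter lengths. Tssk2 had 0.12 (adjusted p = 0.0987) and Tssk6 0.06 (0.432). That correction moved the calls over all genes from 1212 higher and 1016 lower to 1442 higher and 432 lower.

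**Figure D3:**
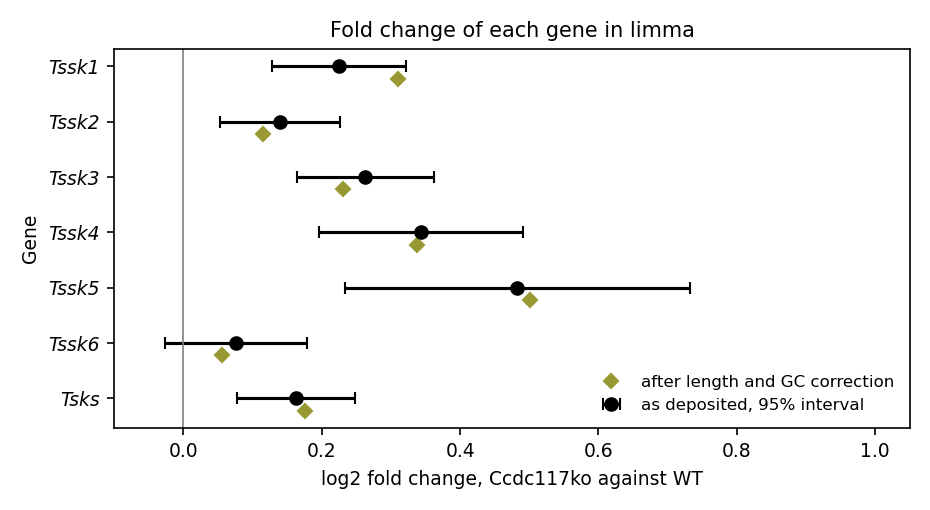
Log2 fold change of each gene, Ccdc117ko against WT, with its 95% interval from limma (black) and the value after the length and GC correction (yellow-green diamonds). The interval of Tssk6 alone includes 0, and all 7 corrected values lie above 0, from 0.06 to 0.50.

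Reads of Tssk6 and Tssk2 made up most of the kinase reads in both genotypes. The 6 kinases summed to 64808, 64285 and 60609 normalized counts in WT and to 69757, 73363 and 70379 in Ccdc117ko. Tssk6 made up 32.7% ± 0.359 of that sum in WT and 30.6% ± 0.988 in Ccdc117ko (SD, n = 3 each), and Tssk2 28.6% ± 0.0259 and 28.0% ± 0.101. Tssk1 had 19.8% ± 0.325 and 20.5% ± 0.556, and Tssk3 11.1% ± 0.406 and 11.8% ± 0.575. Tssk4 and Tssk5, the rarest, had 6.18% ± 0.358 and 1.72% ± 0.211 in WT and 6.95% ± 0.0967 and 2.13% ± 0.118 in Ccdc117ko. These shares are of reads and so weight long transcripts.

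Fold changes of 2 members were compared by the log2 ratio of their counts within each library. The widest difference was that of Tssk5 to Tssk6, a mean log2 ratio of -4.25 ± 0.187 in WT and -3.85 ± 0.0531 in Ccdc117ko (SD, n = 3 each), 0.41 apart. The ratio of Tssk1 to Tssk2 was -0.53 ± 0.0232 and -0.45 ± 0.0351. Over all 21 pairs the exact two-sided permutation p was never below 0.1, the smallest that 3 against 3 allows, and adjusted over the pairs never below 0.175. A test of this size cannot show that 2 members differ in response or that they do not. The ratios of 12 of the 21 pairs, Tssk5 to Tssk6 and Tssk1 to Tssk2 among them, did not overlap between genotypes. These are the same pairs that reached the p of 0.1. The pairs reuse the same 7 genes, and the share among other gene pairs was not computed, so the count is only a description.

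Genes known to act with the kinases were not called. Of 10 listed partners, chaperones and substrates limma called 0 in either direction, with 3 at an unadjusted p under 0.05, a level that 22.7% of all tested genes reached. Limma-voom and the filter at 10 normalized counts also called 0 of them. Their median log2 change was 0.04. The most abundant were Odf2, an outer dense fibre gene of the sperm tail, at 151969 ± 1306 in WT and 146145 ± 2457 in Ccdc117ko (SD, n = 3 each), and Hsp90aa1, a chaperone, at 57592 ± 2311 and 56410.2 ± 2402. The log2 fold changes were -0.06 for Odf2 (limma adjusted p = 0.272) and -0.03 for Hsp90aa1 (0.741), and both were above 0 after the length and GC correction, at 0.04 and 0.02. That correction called 1 of the 10 higher, Pdpk1, a kinase that activates others, at 0.22 (adjusted p = 0.0138, against 0.0995 without it), which is named after its values were seen.

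Structures where Tssk1, Tssk2 and Tsks proteins have been found were covered by 2 lists. The chromatoid body is a perinuclear RNA granule of round spermatids. Limma called 0 of its 11 genes, with 6 at an unadjusted p under 0.05, beside the same 22.7% of all tested genes. Their median log2 change was -0.05, and 0.06 after the length and GC correction. The filter at 10 normalized counts called 2 lower, Piwil1 at -0.17 (limma adjusted p = 0.019) and Tdrd6 at -0.22 (0.0318). Both are named after their values were seen. Limma-voom called 1 lower. The most abundant were Ybx2, a germ cell RNA-binding protein gene, at 0.10 (limma adjusted p = 0.133) and Mael, a piRNA pathway gene, at 0.08 (0.151). These are among the 4 of the 11 genes with a log2 fold change above 0. The annulus is the ring between the midpiece and principal piece of the sperm tail. Of 5 annulus genes Dnajb13, also a radial spoke gene, rose by 0.27 (limma adjusted p = 0.0131), Septin7, a septin, fell by 0.20 (0.0408), and 3 were not called (median 0.01).

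Other protein kinases of the testis gave 1 call in each direction. Of 16 listed, Hipk4, a kinase of spermatids needed for sperm head shaping, rose by 0.24 (limma adjusted p = 0.02), Fer, a tyrosine kinase, fell by 0.25 (0.0336) and 14 were not called, with a median of -0.01. After the length and GC correction Hipk4 and Mak, the second named after its values were seen, were called higher and Fer was no longer called (adjusted p = 0.0522), nor was Septin7 (0.174), and the median of the 16 kinases was 0.09.

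Markers of round spermatids were also higher. The marker lists were chosen with earlier results of these data known, so their calls are a description and not an independent test. All 6 round spermatid markers were called higher, against 3.70% of all tested genes, with a median of 0.43 and a range of 0.32 to 0.48. They summed to 23786 to 27640 normalized counts in the WT libraries and 32764 to 34908 in Ccdc117ko. Txndc8, a spermatid thioredoxin gene, was at 0.32, Spaca1 and Acrv1, of the acrosome, at 0.42 and 0.43, and Catsper4, of the sperm calcium channel, at 0.45 (limma adjusted p = 0.0124, 0.0148, 0.0173 and 0.0148). Of 11 elongating spermatid genes 2 were called higher, Hils1, a spermatid linker histone gene, at 0.28 and Prm3, a protamine-like gene, at 0.24, with 9 not called, a median of 0.11, and overlapping sums of 754778 to 811075 and 791994 to 829683. After the length and GC correction Prm3 was at 0.17 and not called (adjusted p = 0.0599) and the median of that list was 0.04, while the filter at 10 normalized counts called 4 higher and 1 lower.

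Some markers of earlier germ cells and of somatic cells were lower. Among 6 spermatogonial markers Kit and Dazl fell by 0.52 and 0.36 (limma adjusted p = 0.0163 and 0.0189) and 4 were not called (summed 8730 to 9423 in WT and 6998 to 7598 in Ccdc117ko). Of 6 meiotic markers Dmc1 fell by 0.26 (0.036) and 5 were not called, with sums of 64285 to 68133 and 66129 to 66855. Of 6 Sertoli cell markers Gata4, Cldn11 and Wt1 fell by 0.24, 0.20 and 0.27 (0.0239, 0.0297 and 0.0318), with sums of 16630 to 17690 and 15238 to 15925, and Gata4 (0.0846) and Wt1 (0.0682) were not called after the length and GC correction. Of 6 Leydig cell markers Star and Cyp17a1 rose by 1.23 and 0.47 and Hsd3b1 fell by 0.90 (0.0108, 0.0169 and 0.000985), with sums of 64099 to 73817 and 74656 to 87266. Most of that sum was Insl3, at 48328 ± 3955 in WT and 57057 ± 5261 in Ccdc117ko (SD, n = 3 each). Its groups overlapped and limma did not call it (adjusted p = 0.113). Amhr2 and Hspa2, neither of them called, made up most of the Sertoli and meiotic sums. Of 4 macrophage markers Mrc1 fell by 0.28 (0.0238), with sums of 1751 to 1906 and 1381 to 1584, and after that correction it was at -0.19 and not called (0.103). The 2 epididymal genes tested, Rnase10 at -0.37 and Spink8 at 0.39, were not called, with sums of 157 to 192 and 129 to 168. The part of any of these markers in the differences of the kinases was not tested. Of the 20 genes named from these lists as called, 14 were still called without WT replicate 1 and 0 to 2 without any other single library, against 14 to 20 among genes averaging 10 normalized counts or more.

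**Figure D4:**
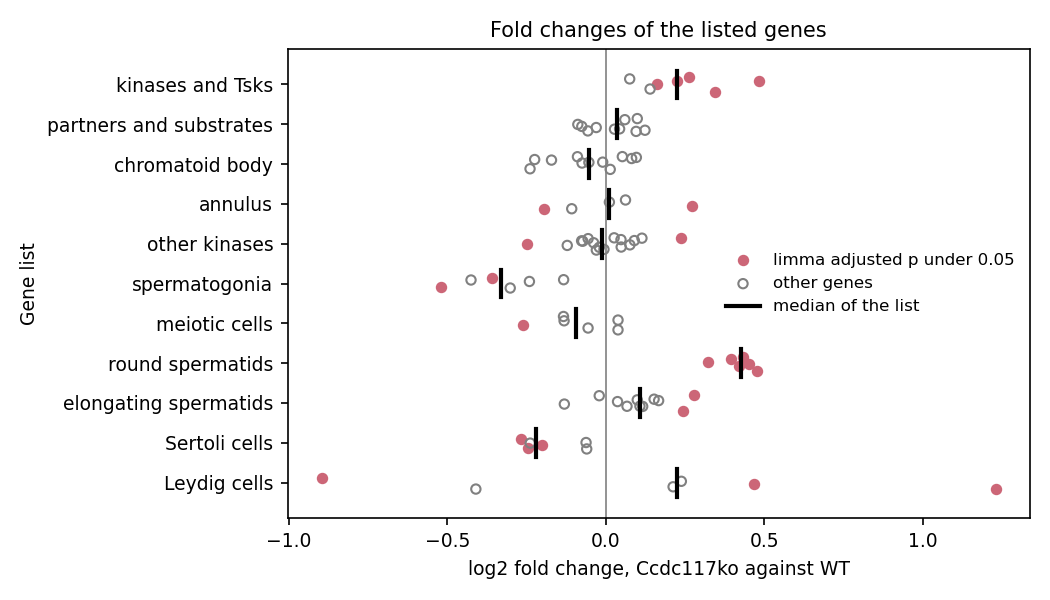
Log2 fold change, Ccdc117ko against WT, of each gene on 11 lists, with called genes in red, others as open grey circles and the median of each list as a black bar. The median of the kinase family (0.23) lies between those of the elongating (0.11) and round spermatid lists (0.43). The lists were chosen with earlier results of these data known.

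The 5 genes whose values over the 6 libraries were most like the family were found by the root-mean-square difference between their log2 deviation from the WT mean and the mean of that deviation over the 7 genes, among 12679 candidates. They were Tubb4b-ps1, annotated as a tubulin pseudogene (0.0102), Frat1, a GSK3-binding protein gene (0.0173), Zfp821, a zinc finger gene (0.0192), BC048671 (0.0201) and Immp1l, a mitochondrial peptidase gene (0.0202). Within the family Tssk1 was nearest to that mean profile, at 0.03, and Tssk5 farthest, at 0.195. In replicate order the mean profile was 0.06, 0.02 and -0.08 in WT and 0.21, 0.29 and 0.22 in Ccdc117ko. Reads of Tubb4b-ps1 may be shared with its parent gene, so its value is uncertain.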

How the data were processed

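Per the labels' protocols, TRIzol RNA was treated with DNase I, made into stranded mRNA libraries and sequenced on a HiSeq 2500. STAR, DESeq2 and the build mm10 are listed, without version or role, in the submitters' processing notes. The authors deposited a log2 value per library, the mean log2 value per genotype, a log2 fold change, and a p-value and FDR whose test is not stated. The unit was read from the values: after undoing the log2 and subtracting 1, 100% of values under 500 reads were whole multiples of 1 step per library within 0.01, which makes them log2(normalized count + 1).

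Limma-trend (limma 3.58.1, R 4.3.3) was fitted to the deposited log2 values with genotype as the only term, for 32783 genes averaging 0.5 normalized counts or more. Tests are two-sided. With a pseudocount of 1, folds of genes with few reads are understated. A run on simulated data required only that mean estimated fold changes lay near those put in, and set no requirement on the calls. The smallest fold put in was larger than those of Tssk2, Tssk6 and Tsks. Members, lists and alternatives were chosen with earlier results of these data known. Of each list, up to 4 called genes were named, or the 2 most abundant. GENCODE M21 (GRCm38) matched 36551 of 36652 identifiers. For the length and GC correction, natural splines with knots at the 25, 50 and 75 percentiles were fitted, library by library, to the differences from the average of each gene. Alternatives were other filters, pseudocounts, scaling, limma-voom, a replicate block, that correction and leaving out each library.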

Additional observations from a re-analysis of the deposited data

How the results depend on the processing

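Under 21 alternatives all 7 members kept a log2 fold change above 0 in 147 of 147 fits; the lowest values of Tssk6 (0.022) and Tssk2 (0.082) came with the filter at 10 and the length and GC correction together. The genes called numbered 2228, 3798 with a filter at 10 normalized counts, 703 with the replicate block, and 6 to 1268 with 1 library left out (5817 to 7349 at an unadjusted p under 0.05); with that filter and a library left out they were 1714 to 4021. Members called numbered 5, 0 with the replicate block and 0 to 2 with 1 library left out. Same-numbered libraries of the 2 genotypes deviated with correlations of -0.00326, -0.00388 and 0.00611, and not every library correlated best with its own number, so the numbers are not read as pairs. With the block limma called none of Tssk1 (0.23, adjusted p = 0.0691), Tssk3 (0.26, 0.056), Tssk4 (0.34, 0.0599), Tssk5 (0.48, 0.0634) and Tsks (0.16, 0.0599).

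With 1 library left out, log2 fold changes were 0.20 to 0.26 for Tssk1, 0.11 to 0.16 for Tssk2, 0.24 to 0.30 for Tssk3, 0.29 to 0.41 for Tssk4, 0.39 to 0.60 for Tssk5, 0.04 to 0.11 for Tssk6 and 0.14 to 0.18 for Tsks. Tssk2 was called in only 4 of the 21 alternatives. These were the filter at 10 and limma-voom, at 0.14, and upper-quartile scaling or that filter with WT replicate 1 left out, at 0.16. Partner genes called numbered 0, 1 after the length and GC correction and 4 with the filter at 10 besides. Chromatoid body genes called numbered 0, 2 with the filter at 10, 1 in limma-voom and 0 to 2 with the filter and a library left out. Annulus genes called numbered 2, and 1 with upper-quartile scaling, the block or the correction (with or without the filter); other kinases called numbered 2, 0 with the block and 4 with the filter and the correction. With a library left out both lists had 0 to 1, or 1 to 3 with the filter.

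Of the genes followed through all alternatives, 5 reversed, and no alternative called them: after the length and GC correction Odf2 had 0.042, Hsp90aa1 0.017 and Ccdc117 0.030 (0.048, 0.0013 and 0.024 with the filter at 10). With 1 library left out, under either filter, Yjefn3 ranged from -0.24 to 0.14 (0.098 without WT replicate 2), Ccdc117 from -0.070 to 0.014 and Hgh1 from -0.012 to 0.064. Of the 89 tested genes on the lists, members aside, the length and GC correction turned 13, none of them called before or after it. The causes were not tested.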

Other observations

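Among the protein-coding genes nearest to each member, those within 1000 bases of it were looked at after the data were seen. Non-coding genes were not part of that search. Fam229a lies 168 bases from Tssk3, on the opposite strand and transcribed away from it. Its normalized counts were 6995, 7370 and 6515 in WT and 8504, 8753 and 8015 in Ccdc117ko, with no overlap. It rose by 0.28 on the log2 scale (SE 0.05, limma adjusted p = 0.0287), beside 0.26 for Tssk3. Its adjusted p was 0.0691 to 0.156 with 1 library left out, and it was called in each such fit among genes averaging 10 normalized counts or more. Bsdc1, 516 bases from Tssk3, had 0.11 (adjusted p = 0.155) with no overlap between groups, and was called after the length and GC correction, at 0.17 (0.0428).

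Ess2, a splicing factor gene 685 bases from Tssk2 on the opposite strand, had 1417, 1451 and 1416 normalized counts in WT and 1642, 1706 and 1527 in Ccdc117ko, which differed by 0.18 on the log2 scale with no overlap (limma adjusted p = 0.0772), and was called after the length and GC correction, at 0.24 (0.0391), and with the filter at 10 normalized counts (0.0445). Dgcr2, which overlaps Tssk1 and lies 75 bases from Tssk2 on the opposite strand, had 0.16 (adjusted p = 0.158). It was called after the length and GC correction, at 0.29 (adjusted p = 0.031). Of the 2 genes that overlap Tssk6, Ndufa13 had 0.08 (adjusted p = 0.272) and Yjefn3, at 28.6 ± 6.71 normalized counts in WT (SD, n = 3), -0.06 (0.948). Hgh1, 515 bases from Tssk5, had 0.03 (0.789), beside 0.48 for Tssk5.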
